A study of Mus musculus with 4 samples.

Results

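Prdm12 and 8 further Prdm genes (Prdm1, Prdm2, Prdm4, Prdm8, Prdm10, Prdm13, Prdm15 and Prdm16) were followed through 4 dual-colour arrays of the embryonic mouse organ of Corti, the strip of cochlear epithelium that holds the hair cells. They were taken by gene name, with every probe of these names kept, which gave 15 probes of 9 genes among the 39429 probes and 29924 gene names of the arrays. Prdm12 was selected on its decrease after loss of Tbx2, so its ratios between genotypes are given as a description without a test. The other genes were taken for their family name. Each array compared a pool of Sox2-Tbx2LOF embryos with a pool of control embryos of the same sex, with n = 4 pools per genotype. Sox2-Tbx2LOF embryos had the genotype Sox2(creERT2);Tbx2(fl/fl), in which a tamoxifen-inducible recombinase inserted into Sox2 inactivates the floxed Tbx2 gene, which encodes a T-box repressor. Controls were labelled Tbx2(fl/n.d.), with the other Tbx2 allele not determined, and lacked the recombinase. All embryos were NMRI at E18.5 (embryonic day), and all dams received 4 mg of tamoxifen at E16.5 and, per the methods, progesterone. According to the crosses in the methods, both groups also carried a fluorescent reporter allele in the R26 locus. Arrays 1 and 2 held female pools and arrays 3 and 4 male pools, and the Sox2-Tbx2LOF pool was labelled with Cy3 on arrays 1 and 3 and with Cy5 on arrays 2 and 4. Several features limit the model. Recombination follows the cells that express Sox2, each value averages a pool of animals, and a lower level in such bulk tissue cannot separate fewer expressing cells from less RNA per cell. The recombinase and the altered Sox2 allele were present only in Sox2-Tbx2LOF embryos. Their effects therefore cannot be told apart from those of Tbx2 loss in any ratio between genotypes. The question behind the design was which RNAs need Tbx2 after hair cells and supporting cells have taken on their identity.

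PRDM proteins share a PR domain, which is related to the SET domain of histone methyltransferases, and most also carry zinc fingers. They act in the nucleus as regulators of transcription, often by recruiting chromatin-modifying enzymes, and several direct the choice between related cell fates. PRDM12 is best known as a determinant of pain-sensing neurons, while Prdm16, known from brown fat and stem cells, marks the greater epithelial ridge, the epithelium medial to the organ of Corti.

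Prdm12 had 3 probes, and 2 of them are shown first together with the Prdm16 probe, since those of Prdm12 lie in different places of the gene and gave different signals. Positions are on mouse build mm9 as the array files give them, and the first 30 of the 60 bases of each probe are written 5′ to 3′ with no part singled out by capitals.
Prdm12 A_55_P1980139, chr2:31511125-31511184, plus strand: catgtatagagttttcaagaaagtgtgttc
Prdm12 A_55_P2094632, chr2:31493961-31494020, plus strand: ttaggctgttgagtgaggtgtgcccaaagc
Prdm16 A_55_P1963547, chr4:153690254-153690313, minus strand: ctggataccaaatgtaatctttccgatgct
Prdm12 probe A_55_P1980139 starts at base 2280 of the transcript NM_001123362. Probe A_55_P2094632 starts at base 4924 of the predicted transcript XM_006498161 and lies 17164 bases before A_55_P1980139. The array files do not name the exon. A probe was counted as seen on an array when the scanner software judged more than 0.5 of its unflagged spots to be well above background.

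Prdm12 was lower in Sox2-Tbx2LOF pools at A_55_P1980139. On a log2 scale, its channel level on arrays 1 to 4 was 9.31, 9.62, 9.65 and 9.71 in control pools. In Sox2-Tbx2LOF pools it was 6.92, 7.01, 7.09 and 7.09. Every control pool lay above every Sox2-Tbx2LOF pool, and the control pool of array 1 was the lowest of its group. The probe was well above background on 4 of 4 arrays in either genotype, so some signal remained at this probe in Sox2-Tbx2LOF pools. Whether all of that signal came from Prdm12 RNA was not tested. Before normalization, the spot signal minus local background was 581, 654, 792 and 692 in control channels and 51.3, 62.1, 80.2 and 55.9 in Sox2-Tbx2LOF channels.

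The log2 ratio of Sox2-Tbx2LOF over control at this Prdm12 probe was −2.39, −2.61, −2.56 and −2.63 on arrays 1 to 4. The mean was −2.55 ± 0.11 (SD, n = 4), which is a 5.84-fold lower level. The arrays with either dye order gave close values, −2.47 on average with the Sox2-Tbx2LOF pool in Cy3 and −2.62 in Cy5. Of 28104 tested probes, 36 were called lower (0.128%), where a call needed an adjusted p under 0.05 in limma and a fold of at least 1.5. By size, the ratio of Prdm12 lay between those of the called genes Trh (−2.91) and Toporsl (−1.69), with no other called probe in between. This order and the ratio belong to the contrast on which Prdm12 was selected.

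**Figure D1:**
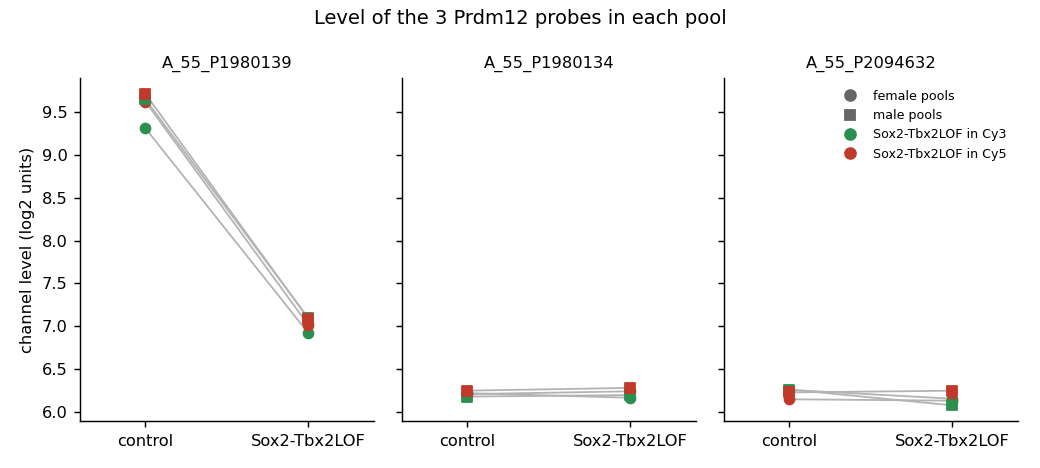
Channel level in log2 units of the 3 Prdm12 probes in each pool, with a grey line joining the control and the Sox2-Tbx2LOF pool of an array. Circles are female and squares male pools, and green and red mark the arrays with the Sox2-Tbx2LOF pool in Cy3 and in Cy5. At A_55_P1980139 the control pools lie between 9.31 and 9.71 and the Sox2-Tbx2LOF pools between 6.92 and 7.09, while both other probes stay between 6.07 and 6.28.

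The size of the Prdm12 decrease depended on how the background was treated. With the scanner software's own ratio, which has no added offset, the log2 ratios were −3.39, −3.48, −3.30 and −3.62, with a mean of −3.45 ± 0.14 (SD, n = 4), or a 10.9-fold lower level. The values of the deposited series matrix averaged −3.46. A smaller offset of 10 in place of 50 gave −3.00. The offset is added to every signal before the logarithm and so draws the ratios of dim spots towards 0 by construction. All 4 arrays were lower under each of these settings.

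**Figure D2:**
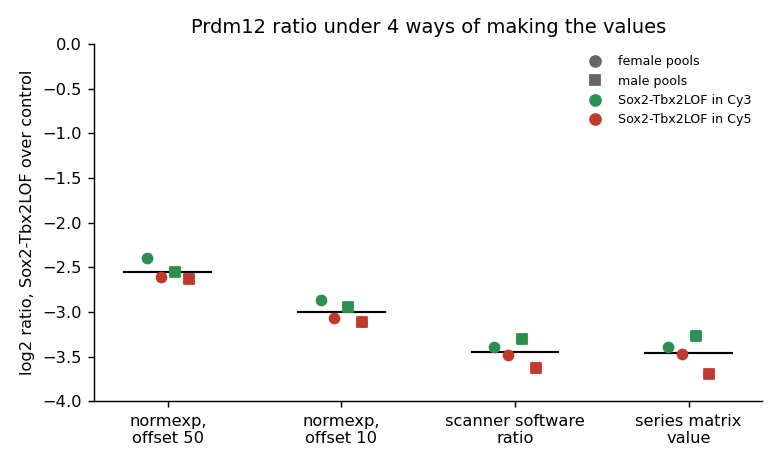
Log2 ratio of Sox2-Tbx2LOF over control for Prdm12 probe A_55_P1980139 on each array under 4 ways of making the values. Points are arrays, with shape for sex and colour for the dye of the Sox2-Tbx2LOF pool, and bars are means, which run from −2.55 with an offset of 50 to −3.46 in the series matrix.

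The remaining pair of Prdm12 probes gave no measurable signal. A_55_P1980134 and A_55_P2094632 were well above background on 0 of 4 arrays in Sox2-Tbx2LOF and on 0 of 4 in control. Their levels lay between 6.16 and 6.28 and between 6.07 and 6.26, and their ratios averaged 0.0073 and −0.071. A_55_P1980134 starts at base 683 of NM_001123362, the transcript that A_55_P1980139 was also designed against. Probes of the same transcript thus gave different signals in control pools. There the spot signal minus local background of A_55_P1980134 was 4.4, 1.9, 4.8 and 4.5 on arrays 1 to 4. The reason for this was not tested. The decrease of Prdm12 therefore rests on 1 probe of 3, and at the other two it was not measurable in either direction.

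The greater epithelial ridge gene Prdm16 was bright in every pool. Its level was 13.78, 13.87, 13.52 and 13.75 in control pools on arrays 1 to 4. In Sox2-Tbx2LOF pools the level was 13.95, 13.71, 13.91 and 13.78, and the groups overlapped. The log2 ratios of Prdm16 were 0.16, −0.15, 0.39 and 0.035, with a mean of 0.11 ± 0.23 (SD, n = 4). This did not pass the test (limma, adjusted p 0.903), and the 95% interval of the log2 ratio ran from −0.024 to 0.24. The ratio averaged 0.28 with the Sox2-Tbx2LOF pool in Cy3 and −0.059 in Cy5, and both Cy3 arrays lay above both Cy5 arrays. Across the alternatives Prdm16 stayed between 0.053 and 0.16.

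Besides Prdm12, 8 probes of the listed genes were bright enough to be tested, and 0 were called in limma. None reached an unadjusted p under 0.05 either. In the background of all tested probes, 0.249% were called in either direction and 7.12% had an unadjusted p under 0.05, so the count of 0 among 8 probes is close to that background. The adjusted p over all tested probes was 0.903 for Prdm16 and 0.9997 for each other probe. The 95% intervals of these 8 log2 ratios lay between −0.18 and 0.24. A p that misses the threshold does not show that the levels were equal.

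Prdm1 encodes BLIMP1, a repressor that directs plasma cells and primordial germ cells. Its log2 ratios were 0.25, −0.026, −0.19 and 0.074, and the mean of 0.027 ± 0.18 (SD, n = 4) was far inside the spread between arrays. Prdm2, the RIZ gene whose protein binds the retinoblastoma protein, had 2 tested probes. A_52_P25812 gave −0.016, −0.0016, 0.18 and −0.076 with a mean of 0.022 ± 0.11. A_65_P10029 gave −0.0083, 0.22, 0.062 and −0.0033 with a mean of 0.067 ± 0.11. Both Prdm2 probes were thus close to 0 and differed by less than their SD. Prdm4, whose protein binds the neurotrophin receptor p75 and the arginine methyltransferase PRMT5, gave −0.058, −0.0018, −0.029 and 0.12 with a mean of 0.0089 ± 0.080.

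Prdm10 had 2 tested probes and a dim one. A_55_P2203996 gave log2 ratios of 0.11, −0.19, −0.079 and −0.057 with a mean of −0.054 ± 0.13 (SD, n = 4). A_55_P2175742 gave 0.10, −0.089, 0.034 and −0.16 with a mean of −0.029 ± 0.12. At both tested Prdm10 probes the Cy3 arrays averaged above 0 (0.018 and 0.067) and the Cy5 arrays below it (−0.13 at each). Prdm15, known to control WNT and MAPK signalling genes in pluripotent cells, gave ratios between −0.14 and 0.030 at A_52_P262118, with a mean of −0.029 ± 0.073.

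**Figure D3:**
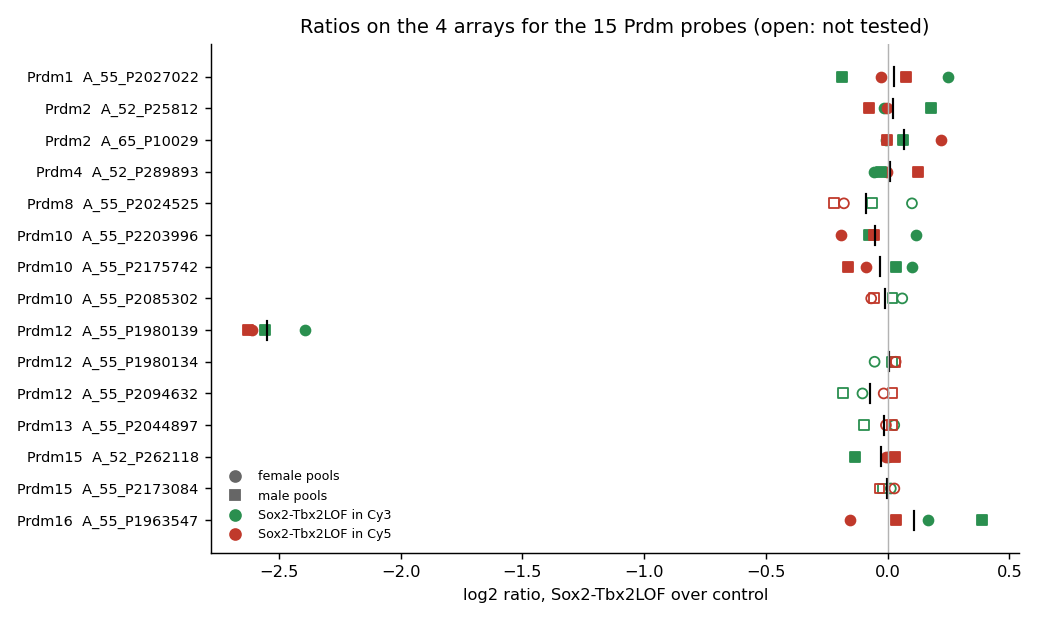
Log2 ratio of Sox2-Tbx2LOF over control on each of the 4 arrays for the 15 probes of the 9 Prdm genes, with a bar at the mean. Filled symbols are tested probes and open symbols are probes too dim to be tested, shape gives the sex and colour the dye of the Sox2-Tbx2LOF pool. Prdm12 probe A_55_P1980139 lies between −2.39 and −2.63, and all ratios of the other 14 probes lie between −0.22 and 0.39.

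The transcripts of 2 listed genes were too dim to be tested. Prdm13, which in the retina and spinal cord directs inhibitory neurons, was well above background on 0 of 4 arrays in either genotype. Prdm8, a partner of the bHLH factor Bhlhe22 in neurons, was well above background on 2 of 4 arrays in Sox2-Tbx2LOF and on 2 of 4 in control. In every one of these cases the pool was labelled with Cy3, so Prdm8 was seen in 4 of 4 Cy3 channels and 0 of 4 Cy5 channels. The dim probe of Prdm10 (A_55_P2085302) was seen in 3 of 4 Cy3 and 0 of 4 Cy5 channels, and the dim probe of Prdm15 (A_55_P2173084) in 1 and 0. Median local background was 31 to 33 in Cy3 and 68 to 80 in Cy5, and its part in this difference was not tested. In all, 9 of the 15 probes, from 7 of the 9 genes, were tested.

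The pools were also compared by sex. The labels held up against sex-linked transcripts, with Xist probe A_52_P113537 at 11.81 to 12.33 in female and 6.04 to 6.13 in male pools, and Ddx3y at 5.96 to 6.01 and 12.18 to 12.56. The Prdm12 ratio averaged −2.50 on the female arrays and −2.59 on the male arrays. These are the ratios on which Prdm12 was selected, so they are given without a test. Over all tested probes 0% were called for such a difference between the sexes, and 2.01% had an unadjusted p under 0.05. None of the 8 tested Prdm probes other than Prdm12 was among the latter, with Prdm16 at 0.21, an SE of 0.10 and an unadjusted limma p of 0.0887.

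For the level itself, averaged over genotypes, male minus female was 0.17 for Prdm12 with an SE of 0.074, from a mean of 8.22 in female pools to 8.38 in male pools. Its unadjusted limma p was 0.0476, and the adjusted p was 0.629. In the background of this comparison 7.88% of the tested probes had an unadjusted p under 0.05, and 0.0534% were called. Prdm12 was the only one of the 9 tested Prdm probes with an unadjusted p under 0.05, and 0 were called. The differences of the other 8 probes lay between −0.10 (Prdm10 A_55_P2203996) and 0.064 (Prdm15 A_52_P262118).

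Among 8 further genes with a PR domain or a related one (Prdm6, Prdm9, Prdm11, Prdm14, Mecom, Zfp408, Zfpm1 and Zfpm2), 5 were tested between the genotypes and 0 were called. Their log2 ratios lay between −0.078 and 0.068 with a median of 0.018, against a median of 0.0022 over all tested probes. Mecom, Prdm6 and Prdm14 were too dim. Between the sexes, however, 1 of the 15 called probes lay in this group, at Prdm11. Prdm11, a family member without the usual array of zinc fingers, was represented by 3 probes, and the first 30 bases of each are shown because their readings differed.
Prdm11 A_55_P2130555, chr2:92826390-92826449, minus strand: cccccagaaccagccccaatacggactacc
Prdm11 A_55_P2130565, chr2:92815094-92815153, minus strand: taaaatatgtcccatttgcaggagggctgt
Prdm11 A_55_P2141053, chr2:92812175-92812234, minus strand: gagcagaagcccatgctgcatgtggtggac

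At Prdm11 probe A_55_P2130555, female pools on arrays 1 and 2 had levels of 8.32 and 8.32 in Sox2-Tbx2LOF and of 8.22 and 8.46 in control. Male pools on arrays 3 and 4 had 7.19 and 7.15 in Sox2-Tbx2LOF and 7.26 and 7.32 in control. All 4 female pools lay above all 4 male pools, in both genotypes and both dyes. How many other probes separated the sexes in this way was not counted. Over all 28104 tested probes, 15 (0.0534%) were called between the sexes, and this probe was picked from them. Male minus female was −1.10 with an SE of 0.063 (limma, adjusted p 1.63e-04), a 2.14-fold higher level in female pools. The other two Prdm11 probes did not differ in this way, with 0.0011 and an SE of 0.071 at A_55_P2130565 and −0.048 and an SE of 0.058 at A_55_P2141053. Prdm11 is on chromosome 2, and the 3 probes were designed against 3 transcripts (ENSMUST00000111272, NM_001177536 and ENSMUST00000111274). Female pools shared arrays 1 and 2 only, so 2 arrays stand for each sex, and sex cannot be separated from what those arrays shared. Without each array in turn the difference stayed between −1.15 and −1.04.

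**Figure D4:**
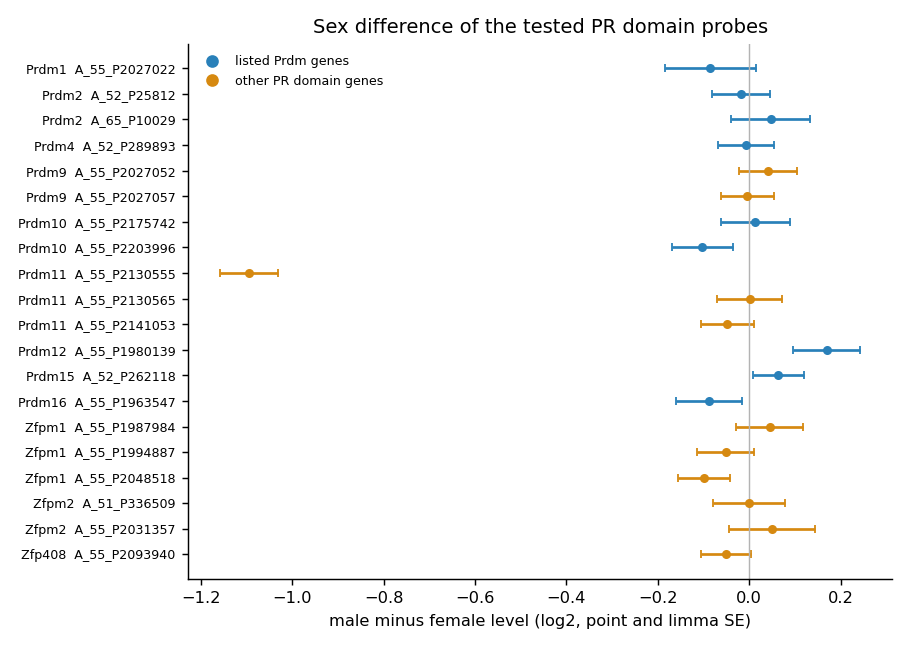
Male minus female level in log2 units for the tested probes of the listed Prdm genes (blue) and of the 8 further genes with a PR domain or a related one (orange), averaged over genotypes. Points are limma estimates and bars their SE. Prdm11 probe A_55_P2130555 lies at −1.10, apart from all others, and Prdm12 lies at 0.17.

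The 5 genes whose channel levels over the 8 pools were most like those of Prdm12 were Trh (Pearson r = 0.9945), Hhla1 (0.9919), Wfdc12 (0.9912), Gm35208 (0.9911) and Pkd2l1 (0.99). Trh encodes the precursor of thyrotropin-releasing hormone, Wfdc12 a protein with a protease inhibitor domain and Pkd2l1 a polycystin-like cation channel. Their log2 ratios averaged −2.91, −0.44, −1.54, −0.87 and −1.48. The r values are descriptions. The 8 pools fall into the 2 genotypes, pairs of pools share an array, and the genes were picked from all tested probes for their likeness.

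**Figure D5:**
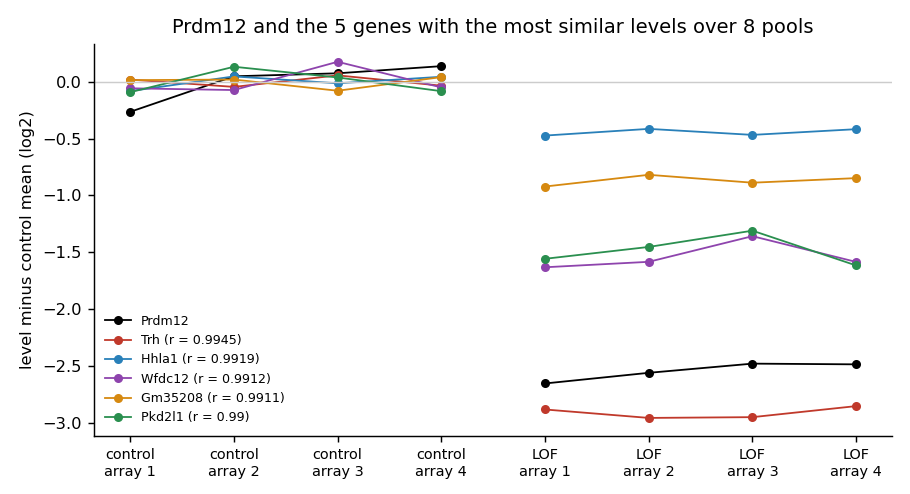
Level minus the mean of the 4 control pools, in log2 units, for Prdm12 and the 5 genes with the highest Pearson r over the 8 pools. Points are pools, lines only join points of a gene within a genotype, and the 4 Sox2-Tbx2LOF pools of each gene lie below its control pools, from about −0.44 for Hhla1 to −2.91 for Trh.

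Partners and targets of PRDM proteins were read from fixed lists. Of 12 cofactors, among them the methyltransferase genes Ehmt1, Ehmt2 and Prmt5 and the corepressor genes Ctbp1 and Ctbp2, all 12 were tested, 0 were called and 0 had an unadjusted limma p under 0.05. Their log2 ratios lay between −0.040 and 0.096 with a median of 0.0039. The largest was that of Bhlhe22 (0.096), the partner of Prdm8. Of 15 genes known as targets in other tissues, 10 were tested and 0 were called. Spry1, a feedback inhibitor of receptor tyrosine kinase signalling and a known target of PRDM15, had ratios of −0.17, −0.22, −0.38 and −0.21 with a mean of −0.24 (limma, adjusted p 0.0929). Rspo1, a WNT agonist and another target of PRDM15, had 0.50, −0.066, 0.35 and −0.053 with a mean of 0.18 (adjusted p 0.21), and both Cy3 arrays lay above both Cy5 arrays. Ccne1, a cyclin gene, had a mean of −0.099 and the proto-oncogene Myc one of −0.054, and neither passed the test (limma, adjusted p 0.781 and 0.9997).

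Markers of the sensory neuron lineage in which PRDM12 acts were partly too dim to be tested in this tissue. Of 11 markers, 7 were tested, while Neurog2 was seen on 0 of 4 arrays in either genotype and Neurog1, Scn10a and Trpv1 were too dim as well. No gene of this list was called lower or higher. Isl1, a LIM homeodomain factor also present in the cochlear epithelium, had a mean log2 ratio of 0.28 (limma, adjusted p 0.0323), below the minimum fold. Calca, which encodes CGRP, had 0.34 (adjusted p 0.055). The summed signal of the 7 markers, as log2 of their mean, was 11.94 to 12.04 in Sox2-Tbx2LOF pools and 11.74 to 11.88 in control pools. Isl1 was the brightest of the 7 (level 14.2, against at most 11.6 for the others) and so carried most of this sum. Single markers went both ways, with 4 above 0 and 3 below it (Prph −0.13, Pou4f1 −0.046 and Tac1 −0.020) and a median log2 ratio of 0.058. The part of sensory neurons in the Prdm12 result was not tested.

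Marker lists of the cells in the dissected tissue were read the same way. Of 6 inner hair cell markers, 3 were called lower, namely Fgf8 (−1.57), Cabp2 (−1.17) and Slc17a8 (−0.66). Otof had −0.40 (limma, adjusted p 0.010), below the minimum fold, and Calb2 had 0.0056. The list also holds the targeted gene Tbx2 (−0.15). The summed signal of the 6 was 11.47 to 11.77 in Sox2-Tbx2LOF and 11.78 to 12.02 in control pools, and it was carried mostly by Tbx2 (level 13.4) and Otof (12.9). The second Slc17a8 probe (A_51_P210350) had −0.12. Of 3 inner supporting cell markers, Fgf20 (−0.82) was called lower. Cdh2 (−0.051, and −0.12 at its other probe) and Slc1a3 (0.024) were not called. Of 8 genes of the greater epithelial ridge and tectorial membrane, all tested, Tectb was called higher (0.69, and 0.62 at its other probe), and the other 7 were not called. The part of these cell types in the Prdm12 value was not tested. Calls were 0 of 4 tested outer hair cell markers, 0 of 5 markers of all hair cells, 0 of 6 outer supporting cell markers, 0 of 5 neuronal, 0 of 4 glial, 0 of 5 mesenchymal, 0 of 4 blood and macrophage, 0 of 4 melanocyte and 0 of 2 lymphocyte markers. With 0.249% of all tested probes called, these counts are close to the background. Still, 4 of 5 mesenchymal, 4 of 5 neuronal and 4 of 4 glial markers lay above 0, against 51.9% of all tested probes. Below 0 lay 4 of 4 melanocyte and 3 of 4 blood and macrophage markers. An unadjusted limma p under 0.05 was reached by 3 mesenchymal, 0 neuronal, 1 glial, 1 melanocyte and 0 blood and macrophage markers, against 7.12% of all tested probes. Each other of these lists had markers on both sides of 0.

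The RNA of the targeted gene changed little at its probe. For the same days of tamoxifen and dissection, the paper reports from antibody staining that recombined hair and supporting cells had lost TBX2 protein. Tbx2 had a single probe (A_55_P2010773, start at transcript base 3502), with log2 ratios of −0.058, −0.24, −0.016 and −0.30 (limma, adjusted p 0.313), and whether recombination removes this stretch was not analysed here. Sox2, which carries the recombinase in Sox2-Tbx2LOF embryos only, averaged 0.23 ± 0.087 (SD, n = 4, limma, adjusted p 0.0876).

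Promoter sequences from RefSeq (build GRCm38.p6), 300 bases around each start, were searched for the T-box core GGTGTGA on both strands, since Tbx2 encodes a T-box factor. The letters occurred in 1307 of 32851 promoters, or 3.98%. They occurred in 0 of the 11 promoters of the 8 listed genes with an entry, Prdm12 included. This says only that these letters are not in these windows.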

How the data were processed

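Total RNA of 8 sex-sorted pools of the basal organ of Corti was labelled in 2 colours and hybridised to 4 Agilent arrays on 1 slide. The deposited files hold spot intensity values from Agilent Feature Extraction 10.7.3.1, as spot means and background medians that the authors left without normalization. In addition, the authors deposited the software's log10 values of Cy5 over Cy3 signal, corrected for background and dye bias. The series matrix the authors deposited gives a signed fold change. Its direction was settled against the ratios of Sox2-Tbx2LOF over control computed here (r 0.937 to 0.954 over tested probes). The column medians of the series matrix are 1, and its exact steps are not given in the sources used here.

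Background was corrected with normexp (offset 50) in limma 3.58.1 under R 4.3.3. Control spots and flagged spots (3.23% to 3.56%) were left out, ratios were loess-normalized within arrays, and the 4 spots of a probe were averaged. No spot was saturated. Channel levels were taken after Aquantile normalization between arrays. A probe was tested when seen on at least 3 of 4 arrays in either genotype, which left 28104 of 39429 and leaves out transcripts limited to a sex. Genotype, and its difference between the sexes, were tested with limma on the ratios with a dye term, and the sex difference in level with a separate-channel fit (intraspot correlation 0.272). P-values were two-sided and adjusted by Benjamini-Hochberg over all tested probes. The study's methods name SAM, an unpaired comparison, in place of which an unpaired limma fit was run as an alternative. The limma fits for genotype, for its difference between the sexes and for the sex difference in level were also run on simulated data. Noise there was independent between arrays. No number of calls was required for the genotype difference between the sexes, so its power was not established. Both channels of an array form a pair by hybridisation, and pools are independent per the methods. The number of arrays limits the precision.

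Every probe of the listed genes is reported. Genes of other lists were named when called, and otherwise up to 4 a list by smallest p, with the brightest tested probe standing for a gene. Genes most like Prdm12 were the 5 with the highest r. Symbols came from the array files or, for 28328 probes, from RefSeq. The genes and lists were chosen with earlier results of these data known. No test compared the levels of different probes, and the summed signals of markers give more weight to bright genes. Some items are not reported here, so a few lists are shorter than first fixed.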

Additional observations from a re-analysis of the deposited data

How the results depend on the processing

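The Prdm12 log2 ratio was −2.55 and became −3.00 with a normexp offset of 10, −3.45 with the scanner software's ratio and −3.46 with the series matrix. Leaving out each array in turn it stayed between −2.59 and −2.51. The 8 other tested Prdm probes were not called under any of the 15 genotype alternatives, and in 6 of 112 pairs of probe and alternative the sign of the ratio differed. Over all probes, 70 were called between the genotypes, 36 of them lower. The scanner software's ratio gave 124 (72 lower), the series matrix 1 (0 lower) and dropping the minimum fold 276. Leaving out each array gave 66 to 106, and 37 to 74 lower, with 106 and 74 without array 1. Treating both channels of an array as unpaired, without the replicate block, gave 57 calls and the same Prdm12 ratio, and changed no call among the Prdm genes. For the sex difference in level, 15 calls became 9 without normalization between arrays. Leaving out each array gave 7 to 62 such calls, with 62 without array 2, 7 without array 3 and 8 without array 4, where the intraspot correlation of the full fit was kept and a lone array was assumed to vary like the others. No Prdm probe of the 9 tested was called for it under these settings, and the Prdm11 probe A_55_P2130555 was called under each (−1.35 to −1.04). The cause of these shifts was not tested beyond the offset. Dim probes, which include 6 of the 15 Prdm probes, have no usable ratio.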
